A study of Rattus norvegicus with 16 samples.

Results

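The response of the heart to the lower of 2 streptozotocin doses was read from 10 of the 16 libraries of the series: 6 from rats given 55 mg/kg (D55, replicates A to F) and 4 from untreated rats (controls 1 to 4). These were chosen by their titles alone. Streptozotocin enters pancreatic beta cells, which make insulin, and kills them. All animals were adult male Wistar rats; the treated ones weighed 240 to 260 g and received a single dose into a tail vein under halothane anesthesia. Their blood glucose was above 13 mmol/L when checked after 24 hours, and the hearts were drained of blood and taken after 4 days. The labels give the controls no agent and mention no vehicle injection for them. Blood glucose, insulin and heart weight of single rats are not in the files used here, so how far insulin fell in each rat cannot be set beside its transcripts.

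The heart normally burns both fatty acids and glucose. Insulin favours glucose by bringing glucose transporters to the surface of the muscle cell and by restraining the release of fatty acids from adipose tissue. When insulin is lost, more fatty acids and ketone bodies reach the heart, and genes under the control of lipid-sensing nuclear receptors and of FoxO factors are known to respond. None of these genes could be looked up here: the files name each gene by an Ensembl identifier alone, and 0 of the 23918 identifiers matched the gene table used. Genes are therefore described by identifier or by rank, and neither pathways, cell types nor the cardiac identity of the samples could be checked against marker genes. In whole-heart RNA, fewer cells of a type and less RNA per cell cannot be told apart.

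Of 14175 genes tested, 9 (0.0635%) differed between D55 and control hearts at an adjusted p of 0.05 (edgeR quasi-likelihood test with Benjamini-Hochberg adjustment). Of these, 8 rose (0.0564% of genes tested) and 1 fell (0.00705%). The fit took its filter, scaling and estimate of spread from all 16 libraries, including 6 from rats given a higher dose. When the 10 compared libraries were fitted alone, 1 gene was called. The edgeR adjusted p of the 9 genes was then 0.0332 to 0.152. The rises ran from 1.91-fold to 31.0-fold, and the fall was 3.47-fold. None of the 9 was among the most abundant transcripts: their mean levels lay between 3.12 and 107 CPM (a gene's count scaled to a fixed library total) in the rising genes, while the 47 genes over 1000 CPM held 0 calls, with 3 at an unadjusted p under 0.05.

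The largest rise was that of ENSRNOG00000042717.2, a gene nearly silent in untreated hearts. Controls 1 to 4 held 0.0518, 0.121, 0.184 and 0.284 CPM. The D55 libraries A to F held 1.65, 4.07, 1.07, 4.42, 10.6 and 8.72 CPM. Every D55 heart thus lay above every control, but the D55 values themselves spanned 9.90-fold. The means were 0.160 CPM ± 0.0985 (SD, n = 4) and 5.10 ± 3.83 (SD, n = 6), and the log2 fold change in edgeR was 4.95 (SE 0.82, adjusted p = 0.0283). With a lowest count of 2, the control level is known only roughly.

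ENSRNOG00000034228.5 had the second largest rise. Its control values were 1.40, 1.40, 1.93 and 2.05 CPM, and its D55 values from A to F were 11.6, 2.81, 9.54, 8.28, 17.8 and 11.5 CPM. Replicate B lay close above the controls, at 1.37 times the highest of them, while the other D55 hearts were at 8.28 CPM or more. The log2 fold change was 2.60 (SE 0.38, edgeR adjusted p = 0.0231). Leaving out replicates B and E left it at 2.60, with an SE of 0.22 in place of 0.38 and an edgeR adjusted p of 6.91e-05. As B held the lowest and E the highest D55 value, leaving out both by itself lowers the SE.

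The gene with the third largest rise was clearly separated in every heart. It went from 4.06, 5.53, 7.22 and 5.53 CPM in controls 1 to 4 to 19.6, 30.6, 19.8, 25.8, 39.8 and 36.1 CPM in D55 A to F. The lowest D55 value was 2.71 times the highest control value, and its D55 values spanned only 2.03-fold. Its log2 fold change was 2.36 (SE 0.34, edgeR adjusted p = 0.0231). It was the 1 gene called when the 10 compared libraries were fitted alone (log2 fold change 2.37, SE 0.27, edgeR adjusted p = 0.0332, with 1073 genes at an unadjusted p under 0.05).

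The other 5 rising genes changed between 1.91-fold and 2.73-fold, with D55 values that spanned 1.39-fold to 2.23-fold. The gene with the fourth largest rise had a control mean of 17.4 CPM ± 3.59 (SD, n = 4) and a D55 mean of 47.5 ± 13.7 (SD, n = 6). For the fifth the means were 30.3 CPM ± 5.14 (SD, n = 4) and 69.6 ± 11.9 (SD, n = 6). The sixth went from 10.4 CPM ± 1.43 (SD, n = 4) to 23.5 ± 5.60 (SD, n = 6). The seventh, the most abundant of the 9, went from 67.7 CPM ± 6.49 (SD, n = 4) to 133 ± 25.2 (SD, n = 6), and the eighth from 22.1 CPM ± 2.70 (SD, n = 4) to 42.4 ± 5.55 (SD, n = 6). In all 5 the lowest D55 heart lay above the highest control, by 1.31 to 1.58 times. For the sixth and seventh, no library gave an estimate within 0.01 of a whole value (0 of 10 and 0 of 9 judged), so reads were shared with similar sequences and their levels are less sure.

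The 1 gene that fell past the threshold was ENSRNOG00000022268.6. Controls held 12.1, 20.4, 17.8 and 23.6 CPM, and D55 A to F held 6.45, 6.34, 6.32, 4.95, 2.64 and 5.26 CPM. The highest treated heart was 1.87 times lower than the lowest control, and 5 of the 6 treated hearts lay within a narrow band, with E below it. The log2 fold change was -1.80 (SE 0.28, edgeR adjusted p = 0.0242). Its estimates were whole in 2 of 10 libraries, so its reads too were partly shared.

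**Figure D1:**
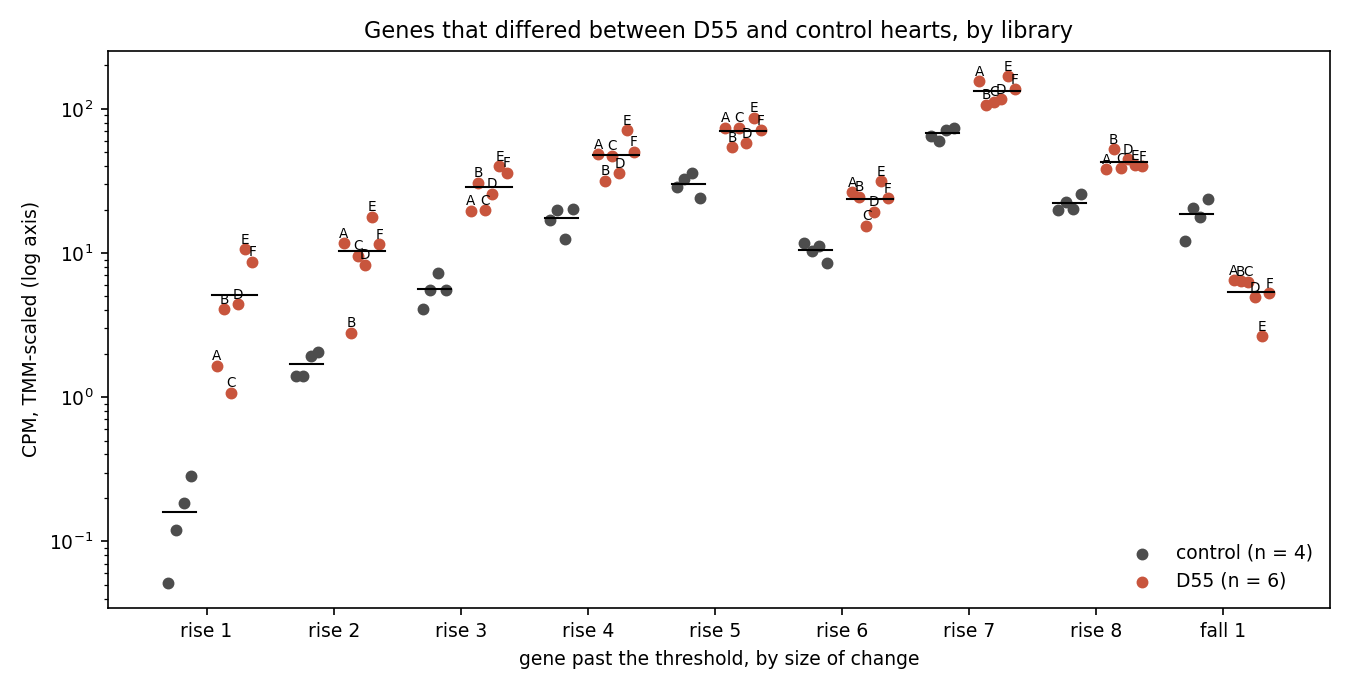
CPM on a log axis of the 9 genes past the threshold, ranked by the size of the change: each point is 1 heart, grey for the 4 controls and red for the 6 D55 hearts with their replicate letters, and lines mark group means. No D55 point overlaps a control point for any of the 9 genes, and E is the highest D55 heart in 7 of the 8 rises.

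The values of the groups did not overlap for any of the 9 genes. Over all genes tested this was so for 362 (2.55%), of which 123 were higher in D55 (0.868%) and 239 lower (1.69%). Without scaling factors the numbers were 107 higher and 109 lower, so the surplus of lower genes depended on the scaling.

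The number of calls depended on single hearts, most of all on each control and on D55 F. Without any 1 of the 4 controls edgeR called 0 genes, with 593 to 1229 at an unadjusted p under 0.05. The edgeR adjusted p of the 9 genes was then 0.0751 to 0.265. Leaving out D55 F also gave 0 (1656 unadjusted), but the 9 genes stayed near the threshold, at an edgeR adjusted p of 0.0625 to 0.0797. The log2 fold change of the largest rise was then 4.73 and that of the fall -1.79. Without D100 C, which enters the filter, the scaling and the estimate of spread but neither compared group, edgeR called 4. Without D55 A it called 5, without E 4, and without B 15, including all 9. Without C it called 7, all among the 9, and without D 9, of which 8 were among them. The genes still called without E, or without D100 C, were the rises ranked 2, 3 and 4 and the fall; without A the largest rise was also kept. With all libraries DESeq2 called 88 genes and limma-voom 522, in either case including all 9.

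A wider set of genes, each averaging 5 CPM or more, missed the threshold but had an unadjusted p under 0.05 and D55 values wholly above or wholly below those of the controls. In 66 of them D55 was higher, with a median of 1.63-fold, and in 120 lower, with a median of 1.37-fold; these are descriptions of genes chosen for their difference. The gene with the largest fold among the 66 was an abundant one, ranked 28 by mean level. Its control values were 228, 219, 174 and 140 CPM, against 1121, 3720, 665, 692, 8327 and 1171 CPM in D55 A to F. All 6 treated hearts were at least 2.92 times the highest control, and B and E stood well above the other 4. Its log2 fold change was 3.78 (SE 0.72, edgeR adjusted p = 0.0775). Without B and E it was 2.26 and passed the threshold (edgeR adjusted p = 0.0235). In the 4 libraries where its estimates were under 10000, 0 were whole.

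Among the 120, the largest fold was that of ENSRNOG00000014448.8. It was tightly held in controls, at 41.4, 34.5, 36.7 and 34.7 CPM, and lower in D55, at 17.9 CPM in A and from 3.01 (E) to 10.04 (C) in the other 5. The control values spanned 1.20-fold and the D55 values 5.93-fold, the groups being separated by 1.93-fold. The log2 fold change of -2.07 (SE 0.52) had an edgeR adjusted p of 0.283. DESeq2 (adjusted p = 0.023) and limma-voom (adjusted p = 0.00489) called this gene.

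Across all genes the fitted change was small and uneven in direction. The middle 50% of genes lay between -0.19 and 0.39 on the log2 scale, around a median of 0.03 that became 0.20 without scaling factors. A fitted change of at least 2-fold was found for 1206 genes (8.51%), of which 1086 were higher (7.66%) and 120 lower (0.847%) in D55. Without B and E these were 128 higher and 129 lower, so there was then no surplus of higher genes. The number at an unadjusted p under 0.05 was 1271 (8.97%), 834 higher (5.88%) and 437 lower (3.08%). Without B and E it was 450, 215 higher and 235 lower. Without control 3 alone it was 696, 375 higher and 321 lower. Fitted changes of at least 2-fold then remained mostly higher, 888 against 138 lower. The typical gene was measured with an SE of 0.30, so that its unadjusted 95% interval reached 1.56-fold to either side. Smaller changes were in general not detectable with these hearts, and the adjusted test asked for more. The smallest change called was 1.91-fold, in a gene with an SE of 0.16.

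The direction of the small shifts followed abundance. The median log2 change was 0.15 among 5709 genes at 1 to 10 CPM and -0.14 among 757 genes at 100 to 1000 CPM. This trend was that of B and E: the median of their mean log2 CPM minus the control mean was 0.33 at 1 to 10 CPM, -0.22 at 10 to 100 CPM and -0.50 at 100 to 1000 CPM, against -0.01, 0.01 and -0.02 for the other 4 D55 hearts. All 10 of the most abundant genes had a fitted level below that of controls, from -0.47 to -0.13 on the log2 scale. In edgeR 0 of them were called, and 0 had an unadjusted p under 0.05. This direction was not stable: 1 of the 10 was higher without scaling factors, 2 without control 3 and 3 without B and E. All 10 were higher in limma-voom with quality weights.

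**Figure D2:**
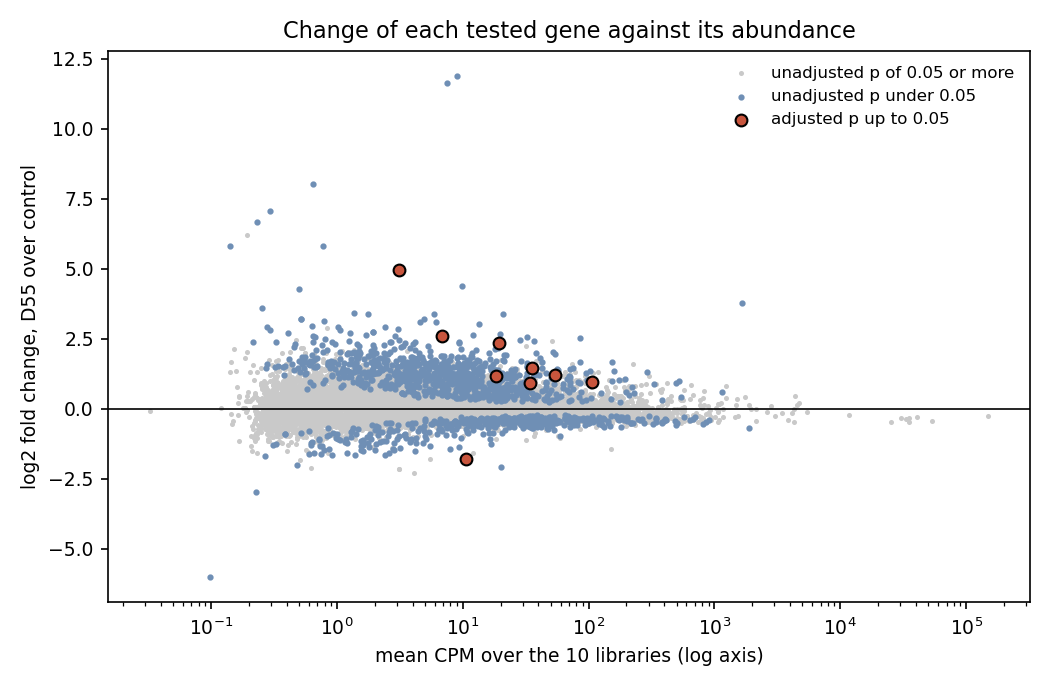
Log2 fold change of D55 over control for each of the 14175 genes tested, against its mean CPM over the 10 libraries on a log axis, coloured by the edgeR p. The 9 genes past the threshold (large red points) lie between 3.12 and 107 CPM, and genes at an unadjusted p under 0.05 (blue) are more numerous above 0 than below.

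The spread among the treated hearts was larger on average than among the untreated ones, though not past the threshold after adjustment. As a measure of spread, each library was compared with the mean of the other libraries of its group, as the root mean square deviation of log2 CPM over all tested genes, scaled for the number of libraries. It was 0.383, 0.442, 0.624 and 0.401 in controls 1 to 4, and 0.641, 0.834, 0.650, 0.794, 0.866 and 0.558 in D55 A to F. Control 3 lay within the D55 range, and the other controls lay below it. The means were 0.462 ± 0.110 (SD, n = 4) and 0.724 ± 0.124 (SD, n = 6). The difference of 0.261 had an exact two-sided permutation p of 0.0238, or 0.0952 after adjustment over 4 measures, so it did not pass; the smallest p this design allows is 0.00476. It was 0.0748 without B and E (exact permutation p = 0.543). B and E were picked for standing apart in these same data, so leaving them out by itself lowers the D55 spread. No control was left out, so the smaller difference does not show that the other 4 D55 hearts varied as little as controls. Each value was taken within its true group and not recomputed when labels were permuted, and hearts of a group enter each other's reference. The p values of this measure are therefore approximate. Leaving out B and E lowered A to 0.424, D to 0.542 and F to 0.417, and raised C to 0.767.

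Gene by gene, the median SD of log2 CPM was 0.311 over the controls and 0.503 over the D55 hearts, and 83.0% of genes were more variable in D55. Without B and E the median was 0.308 over the remaining 4 D55 hearts, and 49.1% of genes were more variable than in controls. The common dispersion fitted by edgeR, given as a coefficient of biological variation, was 26.0% in the controls, 46.4% in D55 and 28.6% in D55 without B and E.

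**Figure D3:**
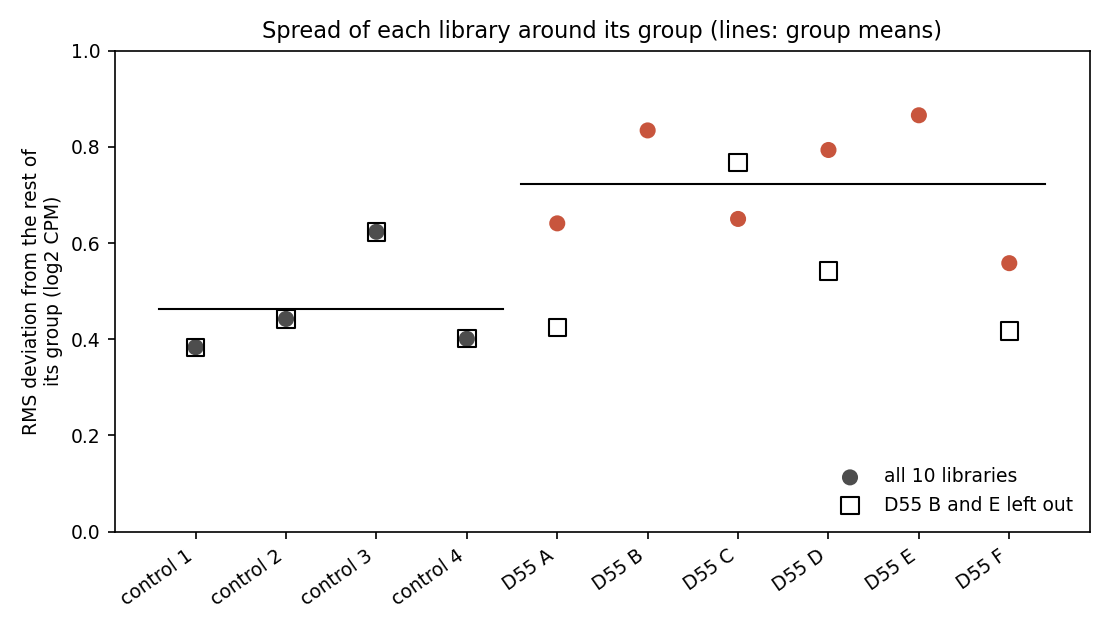
Root mean square deviation of each library from the mean of the other libraries of its group, in log2 CPM: filled circles use all 10 libraries (lines, group means) and open squares leave out D55 B and E. With all libraries the D55 hearts sit between 0.558 and 0.866; without B and E, A, D and F fall into the range of the controls and C does not.

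Replicates B and E resembled each other more than they did any other heart. Over 8781 genes with a mean of at least 5 CPM, their log2 CPM values correlated at 0.978 with each other, at 0.720 to 0.880 with the other D55 hearts and at 0.668 to 0.869 with the controls. The other 4 D55 hearts correlated with the controls at 0.885 to 0.982, and control pairs with each other at 0.923 to 0.987. These correlations run over genes, which are not independent, and share the libraries.

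Measured against control means, 2337 of the 8781 genes (26.6%) were at least 2-fold away in the mean of B and E, and 57 (0.649%) in the mean of the other 4. These shares are not on equal terms. B and E are alike and were picked for standing apart, while a mean over 4 hearts evens out departures of single ones. Against the other 4 D55 hearts, 1507 genes were at least 2-fold higher in B and E and 995 at least 2-fold lower. Genes at 1 to 10 CPM were higher in these hearts, with a median difference of 0.36 on the log2 scale, and more abundant ones lower, with -0.23 at 10 to 100 CPM and -0.47 at 100 to 1000 CPM. In B and E 30.4 and 30.9% of counts fell on the 10 most abundant genes, against 43.2 to 54.6% in the other D55 hearts and 43.7 to 59.3% in controls. Their totals, 48.4 and 41.8 M counts, were the highest of the D55 group, and their numbers of genes with a count, 17876 and 17567, the highest of all 10. Thinned to 18.5 M counts they still had the most, 16972 and 16923, against 15187 to 16652 in the other 8. The part of the tissue sampled or of RNA quality in this was not tested.

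On the first principal component of log2 CPM, which held 62.1% of the variance, B and E scored 101 and 106. All other hearts scored from -75.9 (control 3) to 23.6 (D55 C), with A, D and F inside the range of the controls. Replicate C stood alone on the second component (11.1% of the variance), at 73.1 against -17.8 to -1.26 for the others. C had the fewest counts of the 10, 18.5 M, and 524 genes had a count of 0 in it alone, against 8 to 112 in any other library. With all libraries thinned to 18.5 M counts it still had the fewest genes with a count, 15187 against 15859 to 16972. Over genes of at least 5 CPM its deviation from its group fell from 0.650 to 0.357, the smallest of the D55 hearts, and on the second component of those genes (6.80% of the variance) it scored -5.95, within the range of the others.

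**Figure D4:**
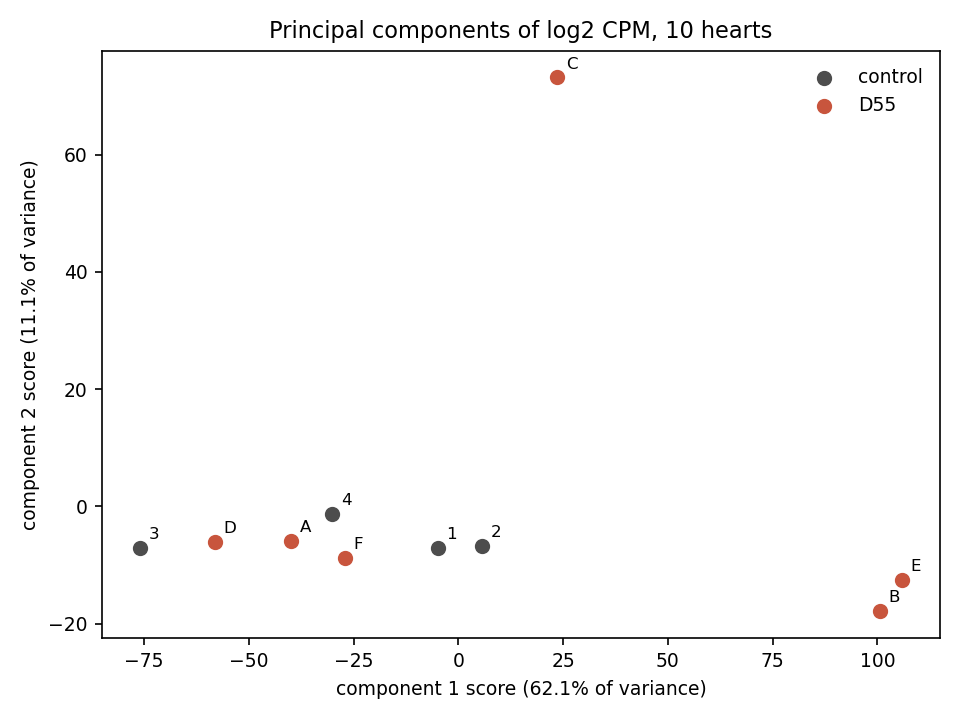
Scores of the 4 control (grey) and 6 D55 (red) hearts on the first 2 principal components of log2 CPM over all tested genes, each point labelled by replicate. B and E lie at 101 and 106 on component 1, C at 73.1 on component 2, and A, D and F among the controls.

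Replicate E often held the most extreme value of the treated hearts in the genes that separated the groups. It had the highest D55 value in 7 of the 8 rising genes and the lowest in the falling one. Across the 8 rising genes the median log2 change from the control mean was 1.82 in E, against 1.42, 1.07, 1.38, 1.04 and 1.40 in A, B, C, D and F. In the wider set E was the highest D55 heart in 47 of the 66 higher genes (71.2%) and the lowest in 87 of the 120 lower ones (72.5%). Over all genes of at least 5 CPM it was the highest in 20.5% and the lowest in 27.1%. B, which resembled E in general expression, was the highest in 7 of the 66 and the lowest in 15 of the 120. D was the reverse: over all genes it was most often the highest D55 heart (31.4%), yet it was so in 1 of the 66. It was the lowest in 24.7% of all genes and in 31.8% of the 66. Both sets were chosen from these same values, with every D55 heart beyond all controls. Their comparison with all genes is therefore a description only.

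**Figure D5:**
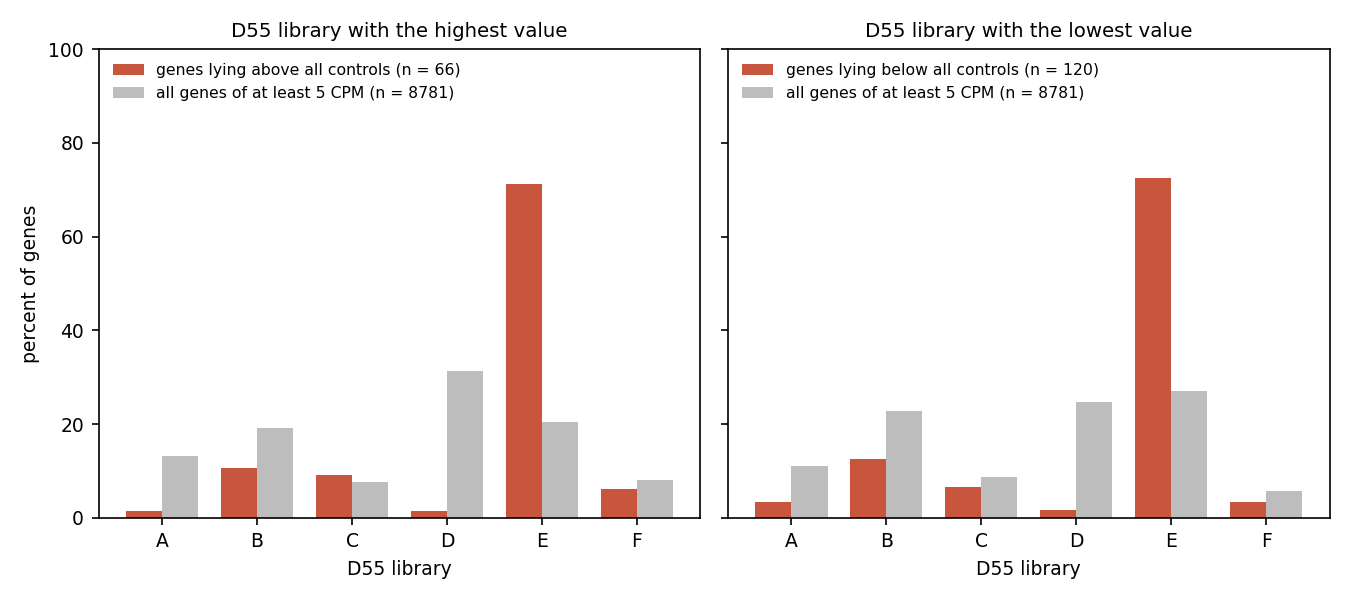
Share of genes for which each D55 library had the highest (left) or the lowest (right) value of the 6, in percent. Red bars are the 66 genes above and the 120 genes below all controls at an unadjusted p under 0.05 that missed the adjusted threshold, and grey bars all 8781 genes of at least 5 CPM. E takes 71.2% and 72.5% of the red sets, against 20.5% and 27.1% of all genes. The red sets were chosen from these same values.

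The genes that varied most between treated hearts were listed among those of at least 50 CPM, a limit that leaves out most of the called genes. The most variable of them was at 0 in B and E and at 62.9 to 132 CPM in the other 4 treated hearts, with controls at 24.3 to 161 CPM. The next was also at 0 in B and E, and at 13.2 to 101 CPM in the others. In both, 0 of 8 estimates were whole, so the authors' counting divided reads between them and similar sequences, and a listed 0 may not mean absence. Not all of the variable genes set B and E apart. The third was at 0 in A and at 33.8 to 135 CPM in the other D55 hearts, with 0 of 9 estimates whole. The sixth ran from 1.28 CPM in F to 117 in D, with 1 of 10 whole. Over all tested genes, 4 were at 0 in B and E while the other 4 D55 hearts averaged at least 5 CPM, and all 4 had mostly estimates that were not whole.

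Others of the variable genes were high in both B and E. The eighth held 179 CPM in B and 182 in E, against 9.11 to 48.9 in the other D55 hearts and 6.85 to 30.1 in controls. The tenth held 713 CPM in B and 678 in E, against 66.5 to 229 in the other D55 hearts and 40.2 to 150 in controls. In both of these C was the next highest D55 heart. At the other end, the gene that varied least held 51.4 to 54.8 CPM in the 6 D55 hearts and 33.7 to 55.2 in the controls.

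With B and E left out, 14 genes (0.101% of 13854) differed between the 4 remaining D55 hearts and the controls, 13 higher and 1 lower. They included 7 of the 9 genes called with all hearts. Of the 7 added genes all were higher in D55, and 3 of them had D55 values that overlapped the controls once B and E were counted. One of these stood at 353, 350, 346 and 256 CPM in controls 1 to 4 and at 767, 713, 492 and 662 CPM in A, C, D and F. In it B was at 288 CPM, among the controls, and E at 996 CPM, the highest of all hearts. Its log2 fold change was 1.01 without these hearts (SE 0.17, edgeR adjusted p = 0.0404). With them its SE was 0.26 and its edgeR adjusted p 0.313. For this gene B and E, alike in most transcripts, lay at opposite ends of the treated group, so leaving out both by itself lowers the SE.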

How the data were processed

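The deposited values are estimated counts per Ensembl gene and library. Per the submitters' processing notes, the authors used kallisto 0.43.1 and the genome build Rnor_6.0. Kallisto divides reads shared by similar transcripts, so estimates need not be whole. The sources used here do not give the annotation release or strand setting. RNA was isolated with TRIzol and polyadenylated RNA sequenced from 400 ng of total RNA, per the labels' protocols, each library from its own rat.

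Estimates were rounded. Genes kept by filterByExpr were fitted in R 4.3.3 with edgeR 4.0.16 (TMM scaling, quasi-likelihood test) over all 16 libraries, including 6 from rats given a higher dose, with Benjamini-Hochberg adjustment and a threshold of 0.05. CPM use TMM-scaled totals; log2 CPM a prior count of 2. Exact two-sided permutation tests served for single values per library, adjusted over 4 measures (total counts, genes with a count, share of the 10 most abundant genes, spread). The values of spread were computed once within the true groups, so their p values are approximate. Totals were 26.2 to 48.3 M counts in controls and 18.5 to 48.4 M in D55, so 3 counts are 0.0413 to 0.138 CPM. Counts of any pair of libraries in a group differed beyond sampling noise (chi-square per degree of freedom of 12.8 or more). The fit was run on simulated data with the same dispersion for every gene and library and no outlying hearts. That dispersion was below the one fitted in D55, so the run does not show how the fit performs with such spread. Alternatives used DESeq2 1.42.0 and limma 3.58.1.

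Genes described were all those called, the largest differences among genes of at least 5 CPM without overlap that missed the threshold, and the most and least variable of at least 50 CPM; at most 2 identifiers are given in each direction. Members, lists and alternatives were chosen with earlier results of these data known. Symbol-based gene and marker lists and promoter motifs could not be used, as 0 identifiers matched.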

Additional observations from a re-analysis of the deposited data

Results flagged for a closer look

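Of 34 sets of values examined for a library far from the rest of its group (Dixon's criterion), 2 stood apart, both on the second principal component. Chance meets this criterion in about 1 of 20 sets of independent, normally distributed values. That rate need not hold for component scores, which are built to separate libraries, or for genes chosen for their difference. For D55 replicate C, the gap to its nearest neighbour was 0.868 of the range of the group. For control 4, at -1.26 against -7.14 to -6.78 in the other controls, it was 0.940 of a range that is small beside that of the D55 hearts.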

How the results depend on the processing

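The number of genes called was 9 with all hearts. It was 10 with DESeq2 size factors, 5 without scaling factors (5 higher, 0 lower; 974 unadjusted; 1 of them among the 9), 9 without the 10 most abundant genes, 8 without a filter and 11 with a stricter one. It was 88 in DESeq2 and 522 in limma-voom (262 higher, 260 lower), 1 when the 10 libraries were fitted alone, 14 without B and E, and 53 with a covariate for how much of a library the 10 most abundant genes took. It was 0 in edgeR when a change beyond 1.5-fold was asked for (375 unadjusted), and 0 to 15 when 1 library was left out. Fitting the 10 libraries alone without B and E gave 7. Leaving out each D100 library and the last fit were chosen after seeing the data. None of the 9 genes changed direction in any of 29 settings. Their groups did not overlap, so leaving out hearts could hardly have reversed a direction, and this is no support for the calls. The third and second largest rises passed in 22 of 29, the gene that fell in 21, the largest rise in 18 and the smallest in 12. The cause was not tested.

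Genes without overlap numbered 216 without scaling factors, 566 without B and E, and 375 to 620 without 1 library, since fewer hearts overlap less often. The spread differed by 0.222 over genes of at least 5 CPM (exact p = 0.0524), 0.0748 without B and E, and 0.207 to 0.353 without 1 library, with exact p = 0.0952 without B and 0.103 without E. The share of the 10 most abundant genes, -6.18 points in D55 against control (exact p = 0.333), was 0.333 points without B and E, and -8.37 to -3.03 without 1 library. Total counts, -0.147 M (exact p = 0.981), ran from -2.95 to 4.43 M without 1 library: 4.43 without control 4, 3.03 without D55 C and 1.96 without D55 D. Genes with a count, -159 (exact p = 0.786), ran from -403 to 134, the latter without C.

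No paired analysis was possible because the titles number the controls and letter the D55 hearts, so the groups share no replicate label. Alternatives on gene lists and marker lists were not run, as 0 identifiers matched a symbol.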

Other observations

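No identifier was listed at 0 in every control and detected in every treated heart. Of the 23918 identifiers, 4426 had a rounded count of 0 in all 10 hearts. The number at 0 in all 4 controls with counts in all 6 D55 hearts was 0. The reverse, 0 in all 6 D55 hearts and counts in all 4 controls, was found for 2, with control means of at most 2.50 counts, under the 3 counts that a count of 0 allows.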
